A study of Homo sapiens with 12 samples.

Results

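The dual-specificity MAPK phosphatases are enzymes that remove phosphate from both the threonine and the tyrosine of the activation loop of mitogen-activated protein kinases. The genes described are DUSP1, DUSP2, DUSP4, DUSP5, DUSP6, DUSP7, DUSP10 and DUSP16, found by symbol. These are 8 of the 26364 genes with a row in the count tables. They were followed in HL-60, a human promyelocytic leukemia cell line whose cells mature toward neutrophils when given ATRA (all-trans retinoic acid), which binds and activates retinoic acid receptors. The 12 bulk RNA-seq libraries are 3 from each of 4 times in 1 µM ATRA, which are 0 h (the untreated start), 4 h, 2 d and 4 d. Cells of every group were grown in medium with serum, and no untreated libraries matched in time to the treated ones are analysed here, so time in ATRA and time in culture cannot be told apart. Nothing in the labels tells whether the replicates came from separate cultures, so p-values measure the spread between these libraries, which may be technical.

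As background, the family falls into classes by place and substrate. DUSP1, DUSP2, DUSP4 and DUSP5 are nuclear enzymes whose genes are typically induced by mitogens or stress. DUSP6 and DUSP7 are cytoplasmic and act mainly on ERK, while DUSP10 and DUSP16 act mainly on JNK and p38. Several of these genes are transcribed in response to the kinases that their products switch off, which makes them parts of negative feedback loops. ERK signalling is known to take part in the ATRA response of HL-60 cells.

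The stretch upstream of the gene is shown for the members that moved furthest in each direction, DUSP6 and DUSP2, and for the member with the fewest reads, DUSP1. They are the 200 bases before the gene start in the RefSeq table of GRCh38.p14, all on the minus strand, written 5′ to 3′ along the gene. That build differs from the hg19 used for alignment. Capitals mark matches, on either strand, to a cAMP response element (TGACGTCA), an AP-1 site (TGANTCA), a nuclear receptor half-site (AGGTCA), an ETS site (CCGGAAG) or a CArG box.
DUSP6, chr12:89352502-89352701: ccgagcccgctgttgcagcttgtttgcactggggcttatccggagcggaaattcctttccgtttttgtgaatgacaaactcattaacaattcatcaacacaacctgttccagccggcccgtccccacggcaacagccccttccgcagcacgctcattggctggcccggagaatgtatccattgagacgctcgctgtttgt
DUSP2, chr2:96145441-96145640: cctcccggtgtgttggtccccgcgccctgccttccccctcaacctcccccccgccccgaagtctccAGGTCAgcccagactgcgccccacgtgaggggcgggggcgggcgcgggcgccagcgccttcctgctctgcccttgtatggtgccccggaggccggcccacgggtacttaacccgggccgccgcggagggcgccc
DUSP1, chr5:172771196-172771395: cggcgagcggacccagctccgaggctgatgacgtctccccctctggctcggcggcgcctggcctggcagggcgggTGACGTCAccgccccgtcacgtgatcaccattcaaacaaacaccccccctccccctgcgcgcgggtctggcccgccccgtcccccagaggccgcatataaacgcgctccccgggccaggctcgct

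None of these motifs was matched in the DUSP6 stretch. DUSP2 held 1 AGGTCA, which occurs in 12.1% of the 35116 windows of 250 upstream bases in the table, and DUSP1 held 1 TGACGTCA, found in 1.65% of windows. The 250 bases upstream had a GC content of 57.2% for DUSP6, 74% for DUSP2 and 74.4% for DUSP1, where the median window had 58%. The table had windows for 6 of the 8 members. In the other windows, DUSP7 and DUSP16 had none of the 5 motifs and 1 of the 2 windows of DUSP10 had 1 AGGTCA. The GC box GGGCGG, left in lower case, was matched upstream of DUSP1, DUSP2, DUSP7, DUSP10 and DUSP16 and not of DUSP6, beside 42.6% of all windows. A match is a string of letters and was not tested for binding or activity.

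Reads assigned to genes numbered from 7866757 to 13658177 per library. Levels are given in CPM, a gene's reads scaled to a common library size after TMM scaling, a factor that evens out differences in library composition. Some libraries stood apart. Genes with a read numbered 22265 in 4 h replicate 1 and 15198 to 15798 elsewhere. Expression leaned toward GC-rich genes in 0 h replicate 2, 4 h replicate 3 and 4 d replicate 1. There log2 expression relative to the mean of the group's other libraries rose by 0.524, 0.405 and 0.346 per 10 points of GC content. Exon length was a term of this fit. The lean was the other way in several libraries, most in 0 h replicate 1 (-0.367) and 4 h replicate 1 (-0.305). The fit was repeated with single libraries left out and with offsets for GC content and length. Single values from these fits were read for the phosphatases only, and not for the other genes named below.

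Over the time course the family changed its makeup. DUSP6 rose at every time and reached 6.25-fold its 0 h level at 4 d, and DUSP4 rose 3.36-fold by 2 d. DUSP2 fell 4.97-fold by 4 d after a higher level at 4 h that was not called, and DUSP10 fell 2.33-fold. DUSP5 was lower at 2 d, and its 4 d libraries overlapped with those of 0 h. DUSP7 and DUSP16 were not called at any time, and DUSP1 had too few reads to be tested.

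All fold changes below are on the log2 scale, ± SE, from 1 model of the 12 libraries, with edgeR's quasi-likelihood test and Benjamini-Hochberg adjustment over the 12671 genes with enough reads. A gene was called at an adjusted p under 0.05. Of the 8 members, 7 passed the filter on low counts. By the test over all times, 5 of these 7 changed (DUSP2, DUSP4, DUSP5, DUSP6 and DUSP10), where 63.2% of all tested genes did. At 4 h against 0 h, 2 of 7 were called, 1 higher and 1 lower, where 6.23% of tested genes were called, 2% higher and 4.23% lower. At 2 d against 0 h, 5 of 7 were called, 2 higher and 3 lower, beside 35.6% of tested genes, 16.9% higher and 18.7% lower. At 4 d against 0 h, 4 of 7 were called, 2 in each direction, a share close to the 57.8% of all tested genes (28.1% higher and 29.7% lower). The tested members had median log2 changes of 0.15, 0.24 and 0.21 at these 3 times, against 0, -0.02 and 0 over all tested genes. Libraries of the 2 times did not overlap for 4 of 7 members at 4 h against 0 h (25.5% of all tested genes), 5 of 7 at 2 d (51%) and 4 of 7 at 4 d (59%).

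**Figure D1:**
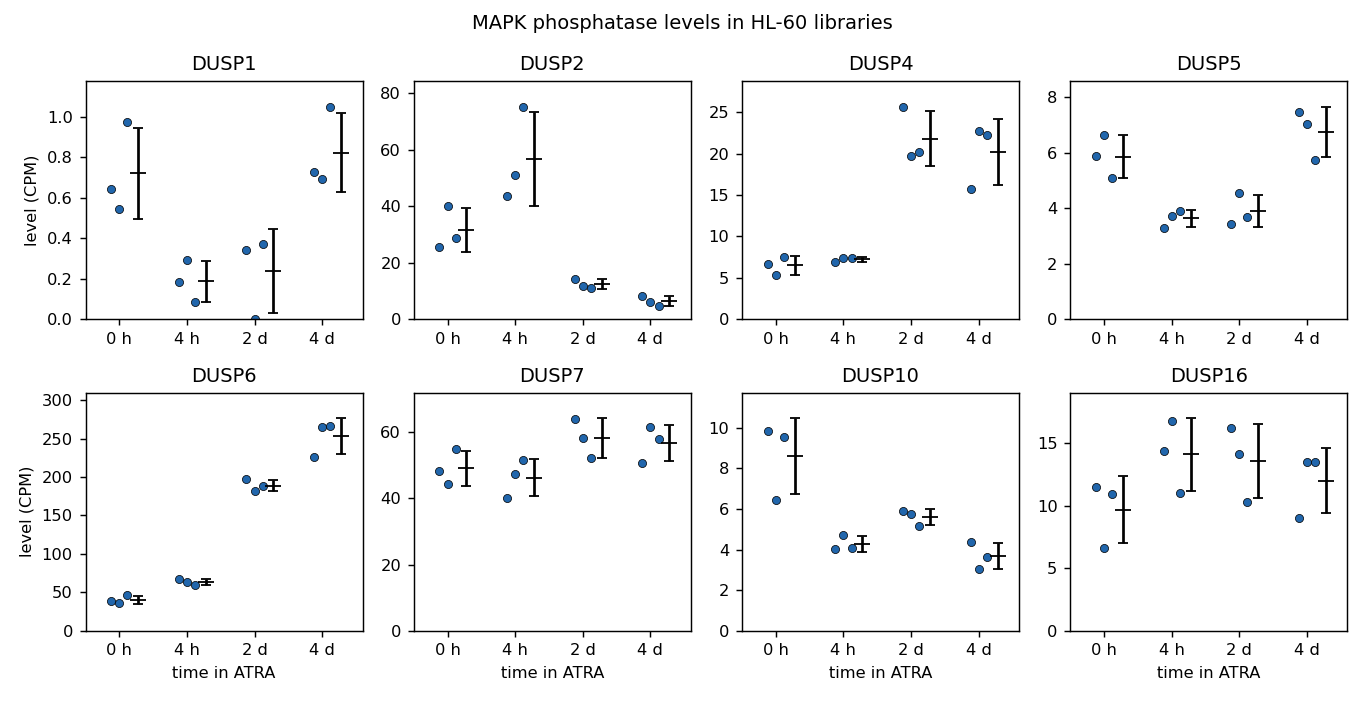
Level in CPM (vertical axis, a separate scale per gene starting at 0) of each of the 8 phosphatases against time in ATRA. Points are single libraries and the bars beside them the mean ± SD of 3 libraries. DUSP6 and DUSP4 sat higher at 2 d and 4 d than in any library of 0 h or 4 h, DUSP2 lower, and DUSP1 stayed at or below 1.05 CPM throughout.

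DUSP6, which dephosphorylates ERK in the cytoplasm, is the first of the ERK-directed pair. It stood at 38.4, 36.7 and 46.2 CPM in the 0 h libraries, at 67.8, 63.8 and 60.2 at 4 h, at 197, 182 and 188 at 2 d and at 226, 265 and 267 at 4 d. No library of any time overlapped with those of another time, and the level was higher at each later time. The log2 change against 0 h was 0.66 ± 0.15 at 4 h, 2.23 ± 0.15 at 2 d and 2.64 ± 0.15 at 4 d (edgeR adjusted p = 0.0183, 2.46e-07 and 1.84e-08). Of the tested genes, 527 rose by more at 4 d, and 306 at 2 d. From 4 h to 2 d the change was 1.57 ± 0.15 (adjusted p = 5.3e-06 by edgeR).

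The early and the last step of DUSP6 were less firm. At 4 h the edgeR call ended without any 1 of 0 h replicates 1 and 2 and 4 h replicates 1 and 2 (adjusted p = 0.0541, 0.0506, 0.07 and 0.0848), and in the fit to the 6 libraries alone (0.0932). From 2 d to 4 d DUSP6 rose by 0.42 ± 0.14 (edgeR adjusted p = 0.0453). That call ended without any 1 of 8 libraries, among them each 2 d library, with adjusted p from 0.0524 without 0 h replicate 3 to 0.147. The others were 0 h replicate 1, 4 h replicate 2 and 4 d replicates 2 and 3. It also ended with library totals alone (0.0946) and with no filter (0.231), and in 12 of 23 alternatives in all. In GENCODE 29, an annotation other than the one used for counting, an antisense RNA (AC024909.2) covers 40.5% of the exon bases of DUSP6. The strand setting of the counting is not given in the sources used here, so reads of both strands cannot be told apart.

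DUSP7, the other cytoplasmic ERK phosphatase of the set, had 48.3, 44.4 and 54.8 CPM at 0 h, 40.2, 47.3 and 51.5 at 4 h, 64.1, 58.3 and 52.1 at 2 d and 50.8, 61.7 and 57.8 at 4 d. Libraries of every time overlapped with those of 0 h, and 2 d lay above 4 h without overlap. Its log2 change against 0 h was -0.08 ± 0.15, 0.24 ± 0.15 and 0.21 ± 0.15 at 4 h, 2 d and 4 d, and edgeR called none of them (adjusted p = 0.736, 0.222 and 0.253).

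Of the inducible nuclear enzymes, DUSP2 moved furthest. DUSP2, described mainly in blood cells, inactivates ERK and p38. The 0 h libraries had 25.6, 40.2 and 28.9 CPM, those of 4 h 43.6, 50.9 and 75.3, those of 2 d 14.3, 11.6 and 11, and those of 4 d 8.1, 6.25 and 4.79. No pair of times overlapped, with the highest levels at 4 h and the lowest at 4 d. Against 0 h the log2 change was -1.36 ± 0.25 at 2 d and -2.31 ± 0.26 at 4 d (edgeR adjusted p = 0.000996 and 6.97e-06). Against 4 h it was -2.20 ± 0.25 at 2 d (edgeR adjusted p = 2.58e-05), and 119 tested genes fell by more in that step.

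The 4 h level of DUSP2 was 1.79-fold that of 0 h (log2 change 0.84 ± 0.24), which edgeR did not call (adjusted p = 0.0542). The transcript models of DUSP2 have a mean GC content of 63.3%, the highest of the set. With offsets for GC content and length the change was 1.23 and passed the threshold, as it did in 7 of 23 alternatives (edgeR adjusted p = 6.57e-05, with values of 6.57e-05 to 0.136 among the alternatives). It was also called without 0 h replicate 2 (1.04, edgeR adjusted p = 0.0289), the GC-rich library with the highest 0 h level, and without 4 d replicate 1 (0.83, edgeR adjusted p = 0.0342). With single libraries left out the change ran from 0.60 to 1.04, with edgeR adjusted p up to 0.125. The highest 4 h level, 75.3 CPM, was that of 4 h replicate 3, which also leaned toward GC-rich genes. From 2 d to 4 d DUSP2 changed by a further -0.95 ± 0.26 (edgeR adjusted p = 0.0175), a call that ended without 2 d replicate 1, 4 d replicate 2 or 4 d replicate 3 (0.072, 0.0529 and 0.0768).

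DUSP4, a nuclear phosphatase of ERK and JNK, had 6.71, 5.28 and 7.5 CPM at 0 h and 6.87, 7.4 and 7.38 at 4 h, which overlapped. At 2 d it had 25.7, 19.7 and 20.2 CPM and at 4 d 15.7, 22.7 and 22.3, each library above every one of 0 h and 4 h. The log2 change against 0 h was 0.15 ± 0.20 at 4 h (not called, edgeR adjusted p = 0.64), 1.75 ± 0.20 at 2 d and 1.64 ± 0.20 at 4 d (edgeR adjusted p = 2.4e-05 and 1.29e-05). Between 2 d and 4 d the libraries overlapped and the change was -0.11 ± 0.19 (edgeR adjusted p = 0.701). DUSP4 and DUSP6 thus shared the late rise, but the 4 h rise was called for DUSP6 alone, and the difference between the genes was not tested.

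DUSP5, which is selective for ERK in the nucleus, had a dip. Its levels were 5.88, 6.64 and 5.07 CPM at 0 h, 3.3, 3.7 and 3.9 at 4 h, 3.42, 4.54 and 3.69 at 2 d and 7.48, 7.04 and 5.75 at 4 d. All libraries of 4 h and 2 d lay below all of 0 h and 4 d, and 4 d overlapped with 0 h. From 2 d to 4 d DUSP5 rose by 0.79 ± 0.21 (edgeR adjusted p = 0.0143). That call ended without 2 d replicate 1 (edgeR adjusted p = 0.0673) and with no filter (0.0538), and in 3 of 23 alternatives in all. Against 0 h DUSP5 stood at -0.69 ± 0.21 at 4 h, which was not called (edgeR adjusted p = 0.0714), and at 0.20 ± 0.20 at 4 d (0.42).

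At 2 d DUSP5 fell against 0 h, with a log2 change of -0.59 ± 0.21 (edgeR adjusted p = 0.0441). This call ended with GC and length offsets (0.0684) and without any 1 of 0 h replicates 1 and 2, 4 h replicate 2, 2 d replicates 1 and 3 and 4 d replicates 2 and 3 (0.0537 to 0.155). It also ended by DESeq2 (0.0503), with library totals alone (0.0769), with no filter (0.181) and in the fit to 6 libraries (0.0721), and in 15 of 23 alternatives in all. A pseudogene of DUSP5, DUSP5P1, has its own row, and any reads that aligned to both copies were left out of both rows. DUSP5P1, named after its values were seen, had 3.74 ± 1.73 CPM in 0 h libraries, 0.943 ± 0.461 in those of 4 h, 0.385 ± 0.272 in those of 2 d and 0.195 ± 0.108 in those of 4 d (SD, n = 3 each).

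DUSP1, an immediate early gene in many cell types whose product inactivates p38, JNK and ERK, was close to the detection limit. Its reads numbered 7, 6 and 10 in the 0 h libraries, 2, 4 and 1 at 4 h, 4, 0 and 3 at 2 d and 7, 7 and 12 at 4 d. Pooled over 3 libraries, this is 0.454 to 1.07 CPM at 0 h, 0.0771 to 0.395 at 4 h, 0.0852 to 0.437 at 2 d and 0.545 to 1.22 at 4 d (95% exact Poisson intervals, counting error only). Every library of 4 h and 2 d lay below every library of 0 h and 4 d. With no filter on low counts DUSP1 was called by the edgeR test over all times (adjusted p = 0.0403) and at 4 d against 4 h (2.05, adjusted p = 0.0347), and not at 4 h or 2 d against 0 h (-1.86 and -1.65, adjusted p = 0.163 and 0.169). The classical members DUSP8 and DUSP9, outside the set, had 0 to 8 and 0 to 2 reads per library.

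The JNK- and p38-directed enzymes are DUSP10 and DUSP16. DUSP10 had 9.84, 6.46 and 9.55 CPM at 0 h, 4.03, 4.72 and 4.07 at 4 h, 5.91, 5.75 and 5.17 at 2 d and 4.36, 3.07 and 3.66 at 4 d. All treated libraries lay below all 0 h libraries, with 0 h replicate 2 the lowest of its group. It fell at each time, with log2 changes of -1.01 ± 0.22 at 4 h, -0.61 ± 0.22 at 2 d and -1.22 ± 0.22 at 4 d (edgeR adjusted p = 0.0162, 0.04 and 0.000391).

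The 4 d fall of DUSP10 was called under all 23 alternatives, with log2 changes from -1.52 to -0.78. At 4 h its edgeR call ended without 0 h replicate 1 or 3 or 4 h replicate 1 or 2 (adjusted p = 0.0533, 0.0507, 0.0633 and 0.0581) and in the fit to 6 libraries (0.073). At 2 d it ended with GC and length offsets (-0.43, edgeR adjusted p = 0.0742) and without any 1 of 0 h replicates 1 and 3, 4 h replicate 2, the 2 d libraries and 4 d replicate 3 (0.0555 to 0.131). With library totals alone, no filter or 6 libraries the 2 d call of DUSP10 ended too (0.0881, 0.121 and 0.0518), and it was lost in 13 of 23 alternatives. The order of DUSP10 from high to low was 0 h, 2 d, 4 h and 4 d, and neighbours below 0 h were not called by edgeR (2 d against 4 h 0.39 ± 0.22, adjusted p = 0.188, and 4 d against 4 h -0.21 ± 0.23, adjusted p = 0.439). With GC and length offsets 2 d against 4 h was called (0.67, edgeR adjusted p = 0.0116) and 4 d against 4 h changed sign (0.32).

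DUSP16 had 11.5, 6.64 and 10.9 CPM at 0 h, 14.4, 16.8 and 11 at 4 h, 16.2, 14.1 and 10.3 at 2 d and 9.04, 13.5 and 13.5 at 4 d. Every pair of times overlapped. The log2 change against 0 h was 0.54 ± 0.26, 0.49 ± 0.26 and 0.31 ± 0.26 at 4 h, 2 d and 4 d, which edgeR did not call (adjusted p = 0.207, 0.152 and 0.318).

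**Figure D2:**
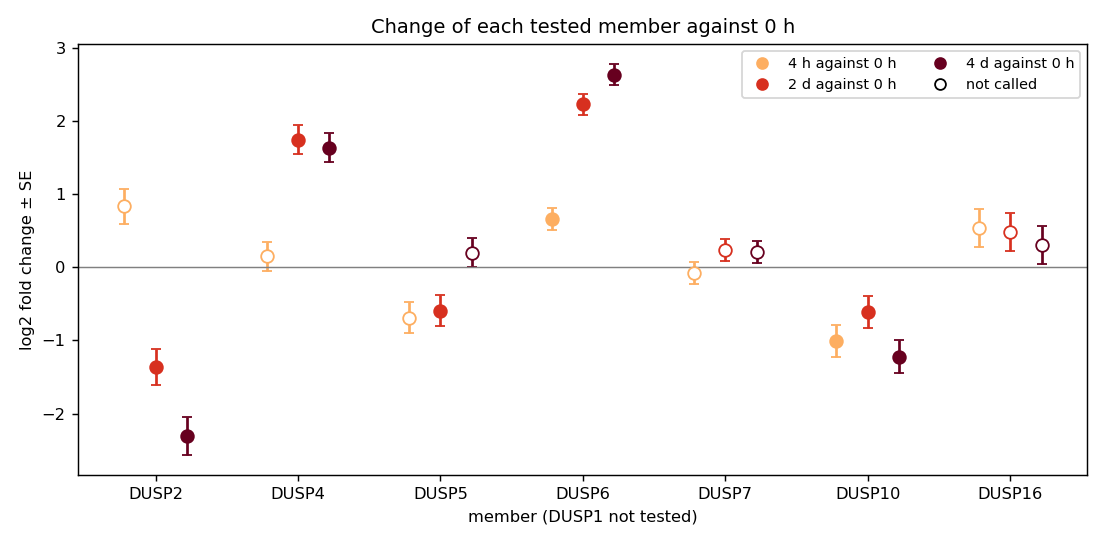
Log2 fold change ± SE (vertical axis) of the 7 tested phosphatases at 4 h, 2 d and 4 d, each against 0 h. Filled points were called by edgeR at an adjusted p under 0.05 and open points were not. DUSP6 and DUSP4 lie above 0 at 2 d and 4 d, DUSP2 and DUSP10 below it, and DUSP7 and DUSP16 have open points only.

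Each step between treated times was also compared. At 2 d against 4 h, 3 of 7 members were called (DUSP4 and DUSP6 higher, DUSP2 lower), where 34.5% of tested genes were (16.5% higher and 18% lower). Libraries of these times did not overlap for 5 of 7 members and 53.1% of tested genes. At 4 d against 2 d, 3 of 7 were called (DUSP5 and DUSP6 higher, DUSP2 lower), beside 26.6% of tested genes (13.1% higher and 13.5% lower). Here 4 of 7 members and 48% of tested genes did not overlap. At 4 d against 4 h, a comparison added after seeing the data, 4 of 7 were called (DUSP4, DUSP5 and DUSP6 higher, DUSP2 lower), where 60.5% of tested genes were (29.7% higher and 30.8% lower), and 4 of 7 members and 64.9% of tested genes did not overlap. All comparisons that share a time share its libraries.

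To compare levels between genes, CPM was divided by exon length in kilobases, from GENCODE 29. At 0 h DUSP2 was the most abundant by this scale, at 16.4 ± 3.95 CPM per kb, ahead of DUSP6 at 8.73 ± 1.09 (SD, n = 3 each). Without the division by length, DUSP7 (mean 49.1 CPM) and DUSP6 (40.5) stood above DUSP2 (31.6) at 0 h. At 4 d DUSP6 led at 54.6 ± 5.09 CPM per kb and DUSP2 stood at 3.30 ± 0.86. DUSP7 was the second at 4 d with 10.1 CPM per kb, and DUSP1 was lowest at 0 h, 4 h, 2 d and 4 d, at 0.407 or below.

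The summed level of the 8 genes was 41.9 ± 2.55 CPM per kb in 0 h libraries, 57.7 ± 8.41 in those of 4 h, 66.4 ± 4.21 in those of 2 d and 77.1 ± 5.85 in those of 4 d. DUSP6 made up 20.8% ± 2.43 of that sum in 0 h libraries, 24.4% ± 4.79 in those of 4 h, 61.6% ± 2.15 in those of 2 d and 70.7% ± 1.53 in those of 4 d. The share of DUSP2 was 38.8% ± 7.8 in 0 h libraries, 50.1% ± 7.17 in those of 4 h, 9.54% ± 0.758 in those of 2 d and 4.35% ± 1.46 in those of 4 d. The JNK- and p38-directed pair made up 4.37% ± 0.16 of the sum at 4 d, against 11.2% ± 3.1 at 0 h (SD, n = 3 for every value). These sums describe transcripts and not enzyme activity.

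**Figure D3:**
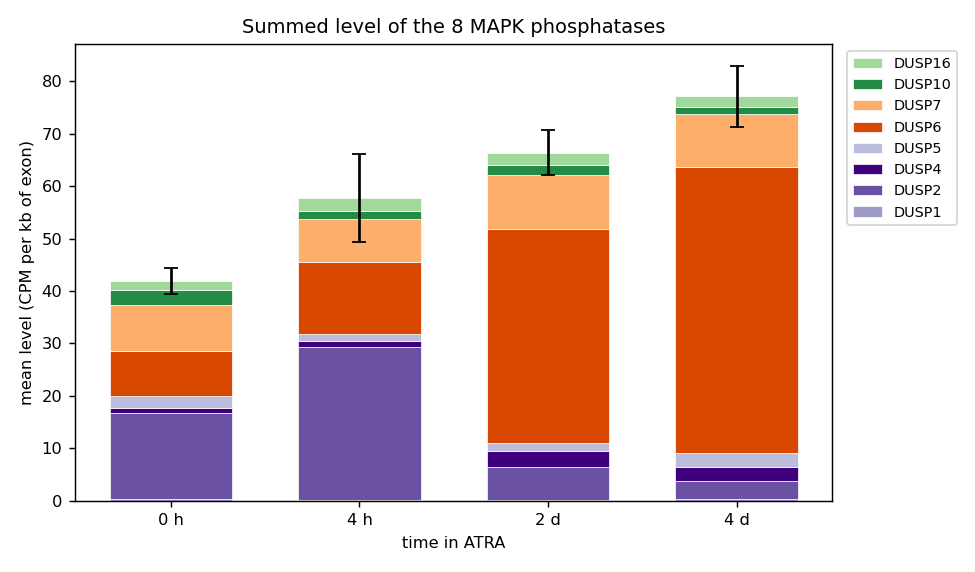
Mean level in CPM per kilobase of exon (vertical axis, from 0) of the 8 phosphatases, stacked, at each time in ATRA. The bar on each stack is the SD of the sum over 3 libraries. DUSP2 is the largest segment at 0 h and 4 h, and DUSP6 the largest at 2 d and 4 d, where it makes up 61.6% and 70.7% of the sum.

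Among tested genes averaging 10 CPM or above, the closest courses were sought by Pearson r of log2 CPM over the 12 libraries, which share their time course and library effects. For DUSP6 these were SLA, an adaptor that dampens antigen receptor signalling (r = 0.995), and CD300LB, an activating myeloid receptor (0.994). For DUSP4 they were OAS3, an antiviral enzyme (0.992), and TPP1, a lysosomal peptidase (0.99), and for DUSP2 RBM19 (0.982) and the nuclear import receptor IPO4 (0.981). DUSP5 lay closest to the kinase DGKA (0.942) and the metal transporter SLC11A1 (0.93), and DUSP7 to FRAT2 (0.948) and WDTC1 (0.94). DUSP16 paired with the ubiquitin protease USP8 (0.957) and clathrin heavy chain CLTC (0.951). For DUSP10 the best values were lower, 0.866 for the antiprotease SERPINA1 and 0.854 for the nucleoside transporter SLC28A3.

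The kinases that the phosphatases act on were read from lists of the MAPK pathway. All list counts stand beside the shares of all tested genes, which were 6.23% called at 4 h, 35.6% at 2 d (16.9% higher, 18.7% lower) and 57.8% at 4 d (28.1% higher, 29.7% lower), with medians of 0, -0.02 and 0. Of 18 genes of the ERK module, 10 were called at 4 d against 0 h, all higher, with a median log2 change of 0.68; the share called was close to the 57.8% of all tested genes. MAPK3, which encodes an ERK kinase, had 111 ± 6.89 CPM at 4 d against 43.6 ± 2.12 at 0 h (1.34 ± 0.17, edgeR adjusted p = 2.32e-05). The scaffold KSR1 rose by 2.00 ± 0.21, the exchange factor SOS2 by 1.44 ± 0.24 and the kinase MKNK1 by 1.18 ± 0.20. MKNK1 had 138 CPM in 4 d replicate 1, which leaned toward GC-rich genes, and 83.2 and 91.7 in the others, all above 0 h. At 2 d against 0 h 6 of the 18 rose and 1 fell.

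In the JNK module 3 of 10 tested genes rose and 2 fell at 4 d (median 0.15), beside 28.1% and 29.7% of all tested genes. JUN, the transcription factor that JNK phosphorylates, fell against 0 h, with log2 changes of -1.67 ± 0.17 at 4 h, -1.72 ± 0.18 at 2 d and -0.50 ± 0.17 at 4 d, while the kinases MAP3K1 and MAP3K11 rose by 1.57 ± 0.25 and 1.39 ± 0.34 at 4 d. MAP3K11 had 948 CPM in 4 d replicate 1, which leaned toward GC-rich genes, and 438 and 541 in the others. All lay above the 0 h libraries. MAPK8, a JNK kinase, stood at 0.42 ± 0.15, 0.01 ± 0.15 and 0.01 ± 0.15 at the 3 times and was not called by edgeR (adjusted p = 0.101, 0.972 and 0.973). In the p38 module 6 of 13 tested genes rose and 2 fell at 4 d (median 0.41), where 57.8% of all tested genes were called. MAPKAPK2, a kinase activated by p38, rose at every time, to 674 ± 33.5 CPM at 4 d against 141 ± 3.9 at 0 h (2.26 ± 0.16, edgeR adjusted p = 1.08e-07). MAPK14, the main p38 kinase, rose by 0.41 ± 0.15 at 4 d (edgeR adjusted p = 0.0334), MAPK13 by 1.80 ± 0.41 and the p38 activator MAP2K6 by 1.75 ± 0.27, while MAPK12 fell (-1.45 ± 0.32). MAPK13 had 24.2 CPM in 4 d replicate 1 and 12.4 and 13.8 in the others, all above 0 h.

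Other inhibitors of the ERK pathway moved in both directions. Of 8 tested ERK feedback inhibitors, 4 rose and 2 fell at 4 d (median 0.57), where 28.1% of all tested genes rose and 29.7% fell. SPRY2, a Sprouty protein that restrains signalling from receptors to RAF, had 139 ± 15.8 CPM at 4 d against 33.4 ± 4.53 at 0 h (2.06 ± 0.15, edgeR adjusted p = 1.42e-07). It was at 1.31 ± 0.15 at 2 d and 0.52 ± 0.15 at 4 h, the last not called (edgeR adjusted p = 0.0557). Its relative SPRY4 fell to 0.0693 ± 0.12 CPM at 4 d, against 2.90 ± 0.36 at 0 h (SD, n = 3 each). SPRY1 rose by 0.82 ± 0.18 at 4 h and fell at 4 d (-1.19 ± 0.20), and NF1, a RAS-inactivating protein, rose by 0.96 ± 0.25.

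Among 15 tested ERK-responsive transcripts, 8 rose and 4 fell at 4 d, 3 rose and 4 fell at 2 d, and 2 rose at 4 h, beside 57.8%, 35.6% and 6.23% of all tested genes called at those times. The 2 at 4 h were FOS (2.05 ± 0.18) and EGR1 (2.42 ± 0.25). FOS had 7.89 ± 1.9 CPM in 0 h libraries, 32.7 ± 3.15 in those of 4 h, 14 ± 0.449 in those of 2 d and 42.5 ± 4.41 in those of 4 d, and EGR1 had 4.35 ± 1.67, 23.4 ± 3.58, 4.94 ± 0.846 and 17.3 ± 2.31 at the same times. The course of both had peaks at 4 h and 4 d, unlike that of DUSP6, which was highest at 2 d and 4 d. At 4 d EGR3 rose by 3.76 ± 0.44, PHLDA1 by 3.35 ± 0.32 and EGR2 by 2.79 ± 0.50, while MYC fell (-3.11 ± 0.22).

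Of 6 other phosphatases known to act on MAPKs that were tested, 2 rose at 4 d, where 28.1% of all tested genes did. They were PTPN7 (0.70 ± 0.24), whose 4 d libraries overlapped with those of 0 h, and PPM1B (0.51 ± 0.14). Outside the set, 14 genes of the dual-specificity phosphatase family were tested, many of which act on substrates other than MAPKs. Of these, 5 rose and 3 fell at 4 d, a share close to the 57.8% of all tested genes. DUSP3, an atypical phosphatase that can act on ERK and JNK, fell to 4.37 ± 0.633 CPM at 4 d, against 25.9 ± 4.85 at 0 h (-2.56 ± 0.19, edgeR adjusted p = 1.83e-07). DUSP22 rose by 1.51 ± 0.17, DUSP18 by 2.14 ± 0.29 and SSH2, a cofilin phosphatase, by 1.65 ± 0.17.

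**Figure D4:**
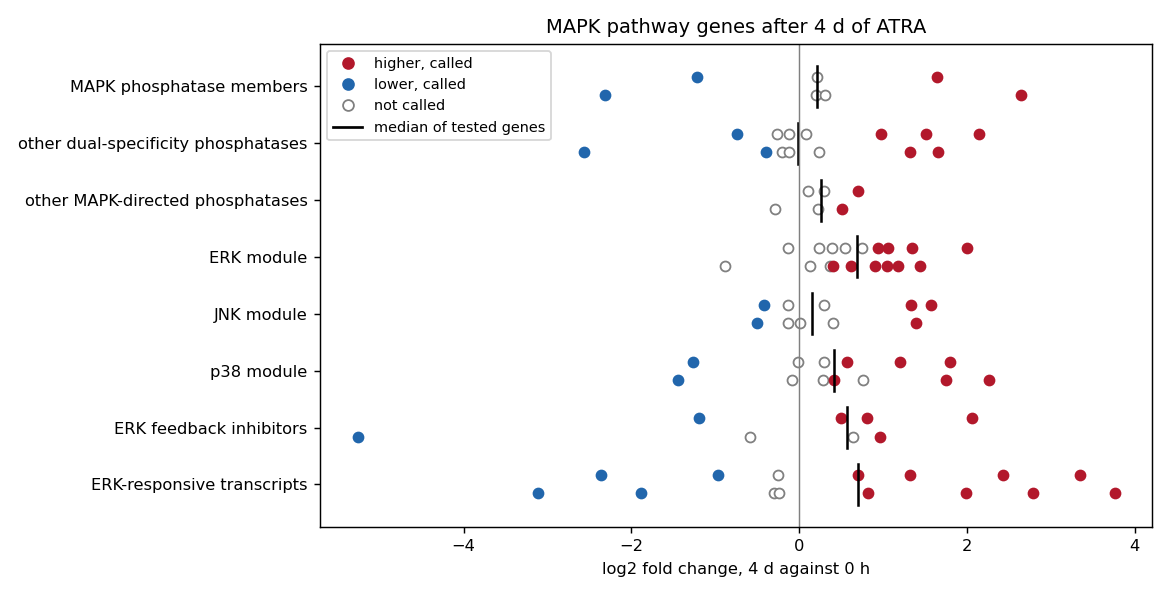
Log2 fold change at 4 d against 0 h (horizontal axis) of tested genes in 8 lists (rows). Red and blue points were called higher or lower by edgeR, open points were not called, and black lines are list medians. The phosphatase members lie on both sides of 0, and 10 of 18 genes of the ERK module are called higher.

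Markers of maturation and of other lineages changed too, with 57.8% of all tested genes called at 4 d. All 8 neutrophil maturation markers were called at 4 d, 7 higher and 1 lower, and their summed level was 5800 to 7790 CPM at 4 d against 1150 to 1800 at 0 h. At 2 d 6 of them rose and 2 fell (3600 to 3860 CPM), while at 4 h 4 were called, all lower, with a sum of 1220 to 1880 CPM. Of 8 monocyte markers, 5 were tested, 2 rose and 2 fell at 4 d, and the sum was 138 to 171 CPM against 90.1 to 113, with MRC1 at 0 reads at every time and VCAN and CD163 at 0 reads at 4 d. The monocyte sum was below that of 0 h at the earlier times, 33.2 to 46.5 CPM at 4 h and 50.2 to 61.9 at 2 d. Of the 8 eosinophil and basophil markers 7 were tested, 2 rose and 4 fell, and the sum was 713 to 741 CPM at 4 d against 5330 to 7960 at 0 h. Most of that difference lay in PRG2, an eosinophil granule protein, at 228 ± 30.2 CPM at 4 d against 5820 ± 1380 at 0 h, while the chemokine receptor CCR3 rose to 232 ± 15.5 CPM, against 0.584 ± 0.31 at 0 h (SD, n = 3 each). This sum was 2790 to 4750 CPM in 4 h libraries and 620 to 744 in those of 2 d. Of the 7 erythroid and lymphoid markers 3 were tested and 1 rose, and the sum was 49.8 to 61.3 CPM at 4 d against 52.3 to 69 at 0 h, with HBA1, HBB and MS4A1 at 0 reads in both. Most of that sum was NKG7, at 49 ± 5.21 CPM at 4 d against 57.1 ± 8.9 at 0 h. The marker that rose was CD3E, at 6.18 ± 1.44 CPM at 4 d against 0.562 ± 0.112 at 0 h (SD, n = 3 each). The part of these shifts in the phosphatase changes was not tested, and in bulk RNA fewer cells with a transcript and less of it per cell cannot be told apart.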

How the data were processed

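RNA was sequenced from 12 HL-60 libraries, 3 at each of 4 times. The deposited values are counts, whole reads per gene symbol. Per the submitters' processing notes, FastQC, Trim Galore 0.6.7, HISAT2 2.1.0, HTSeq 1.99.2 and the build hg19 were used; for the gene annotation and strand setting, the sources used here give nothing. HTSeq's summary rows, 22.87% to 35.61% of a library, stayed out of library sizes and tests. Ambiguous reads were 2.74% to 3.9% of a library; leaving them and multiply aligned reads out lowers genes with close copies.

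The model used edgeR 4.0.16 under R 4.3.3. filterByExpr kept 12671 genes, TMM factors ran from 0.864 to 1.098, and a quasi-likelihood fit with 1 mean per time had 8 residual degrees of freedom. SEs were derived from the fold change and its F statistic. Calls were made at an adjusted p under 0.05. The 4 h test was also tried on simulated counts whose means and spreads were taken from the main fit. Its outcome is not given here. Pairs of replicates differed by more than counting error (chi-square per degree of freedom from 3.47 over genes with at least 20 reads).

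The members and gene lists were chosen with earlier results of these data known. All members are named. For each tested member the 2 genes with the highest r were named, symbols starting with LOC, LINC, MIR, SNOR or RNU left out. Of each context list up to 4 called genes with the largest change against 0 h were eligible, and MAPK3, MAPK8, MAPK14, FOS, EGR1 and SPRY2 were fixed. An item covered by this rule is not reported here.

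Alternatives were RLE factors, library totals alone, DESeq2 1.42.0, limma-voom (limma 3.58.1), no filter, a mean of at least 1 CPM, 6 libraries per fit, a replicate term, an adjusted p under 0.01, GC and length offsets, each library left out, and 0 h replicate 2, 4 h replicate 1 and 4 d replicate 1 left out together. GC content and exon length came from GENCODE 29 (GRCh38), matched by symbol for 90.2% of genes and every tested member.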

Additional observations from a re-analysis of the deposited data

How the results depend on the processing

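Of 966 values of single members under the alternatives, 880 kept their direction and side of the threshold, 60 lost a call, 11 gained one and 15 changed sign. The calls of DUSP6, DUSP4, DUSP2 and DUSP10 at 4 d, of DUSP6, DUSP4 and DUSP2 at 2 d, and of DUSP6, DUSP4 and DUSP2 at 2 d against 4 h held in all 23 alternatives. At 4 h against 0 h, where 2 members were called, the count was 4 by DESeq2, 1 with the replicate block, 0 at an adjusted p under 0.01, 0 with the 6 libraries alone, and 0 to 3 with single libraries left out. At 2 d against 0 h, where 5 were called, it was 3 with library totals alone, 3 with no filter, 3 with the replicate block, 3 at an adjusted p under 0.01, 3 with GC and length offsets, 3 with 6 libraries, and 3 to 5 with single libraries left out. At 4 d against 2 d, with 3 calls, it was 1 with no filter, 0 at an adjusted p under 0.01, 5 with 3 libraries left out together (0 h replicate 2, and replicate 1 of 4 h and of 4 d; 4 of the 7 members tested in all libraries, and DUSP1, which passed the filter there), and 0 to 4 with single libraries left out. At 4 d against 4 h, with 4 calls, it was 5 with no filter and 5 with the same 3 libraries left out together. With single libraries left out it was 4 to 5. The added call in these fits was that of DUSP1, which the main fit did not test. The cause of these moves was not tested.

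Sign changes fell on values that were not called. With GC and length offsets DUSP7 stood at 0.09 at 4 h, -0.01 at 4 d and -0.10 at 4 d against 4 h, DUSP16 at 0.04 at 2 d against 4 h and DUSP10 at 0.32 at 4 d against 4 h. Without the 3 libraries together, DUSP4 and DUSP7 were at 0.04 and 0.04 at 4 d against 2 d. With single libraries left out, DUSP7 ran from -0.16 to 0 at 4 h and from -0.12 to 0.04 at 4 d against 2 d, DUSP4 from -0.20 to 0.04 in that step, and at 2 d against 4 h DUSP16 ran from -0.22 to 0.11 and DUSP5 from -0.03 to 0.19.

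The number of all genes called at 4 h was 790 in the fit as reported and 254 to 1519 with single libraries left out, 1341 by DESeq2, 1960 with no filter, 1295 with GC and length offsets, 381 with the replicate block and 261 with 6 libraries. With the replicate block the calls of DUSP6 at 4 h and at 4 d against 2 d ended (edgeR adjusted p = 0.0598 and 0.0981), as did those of DUSP5 and DUSP10 at 2 d (0.0676 and 0.0721). Replicate numbers were not treated as pairing the samples: of 18 pairs with the same number, deviations from the group mean correlated at -0.809 to 0.671, 6 of them over 0.1, and 2 of 12 libraries correlated best with their own number. Depth limits DUSP1, with 0 to 12 reads per library.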
